A study of Mus musculus with 12 samples.

Results

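The genes described here encode the ligands, receptors and adaptors of insulin and insulin-like growth factor (IGF) signalling. They were taken by symbol from the total RNA table: the ligands Ins2, Igf1 and Igf2, the receptors Insr, Igf1r and Igf2r, the adaptors Irs1 and Irs2, and the binding protein Igfbp5. All 9 have a row among the 24736 symbols of the table, and all 9 passed the filter on low counts that kept 18060 genes. The tissue was the hippocampus of male mice aged 4 months. One group was transgenic for APP/PS1, that is, for APPswe, an amyloid precursor protein with the Swedish mutation, and PSEN1dE9, a presenilin 1 lacking exon 9. The other group was wild-type (WT) littermates. Each group gave 3 total RNA libraries from 3 mice, numbered 1, 2 and 3 for APP/PS1 and 1, 2 and 4 for WT, and 3 small RNA libraries. The labels used here name no strain, transgenic line or promoter.

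Insulin and the IGFs are small secreted proteins that bind receptor tyrosine kinases at the cell surface. The activated receptors phosphorylate insulin receptor substrate proteins, which recruit PI3 kinase and switch on AKT and mTOR, while a parallel branch runs through RAS to the MAP kinases. In brain, insulin arrives mostly from the blood, IGF1 is made by some neurons and by microglia, and IGF2 is made mainly by the meninges and the choroid plexus, although hippocampal IGF2 is also studied for its part in memory.

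Total RNA libraries held 120958765 to 146904552 estimated counts. App, which the construct carries, stood at 2948 to 3465 CPM in the APP/PS1 libraries and 1522 to 1580 CPM in the WT libraries, so each library matched its label. CPM here are counts scaled to TMM-adjusted library size (TMM is edgeR's correction for composition), a scale on which 1 gene can be compared between libraries but, without transcript lengths, not with another gene. APP/PS1 replicate 3 stood apart. Its summed CPM over 10 hippocampal excitatory neuron markers was 619, against 989 to 1138 in the other libraries. Over 10 microglial markers the sum was 174, against 255 to 290. Over 8 astrocyte markers it was 6452, against 7346 to 8379, and over 8 oligodendrocyte markers 2516, against 2573 to 3938. The astrocyte sum was led by Slc1a2, at 3925 CPM in that library against 5356 to 6315 CPM, and the list was split. Slc1a2 and Gfap were lowest there, Slc1a3, Aldoc, Aqp4 and S100b were highest there, and Aldh1l1 and Gja1 lay in between. The sum of 10 endothelial and mural cell markers, 431, lay within the 356 to 445 of the other libraries. All 8 oligodendrocyte markers were on average lower in APP/PS1 than in WT, though none passed the test described below. Their sums overlapped between the genotypes, and the top one, 3938 CPM, was that of WT replicate 1. APP/PS1 replicate 2 (3099.5 CPM) exceeded WT replicate 2 (2968 CPM) and WT replicate 4 (2656 CPM). APP/PS1 replicate 1 (2573 CPM) and APP/PS1 replicate 3 (2516 CPM) lay under every WT library. Of 10 GABAergic interneuron markers, Pvalb was at 256 CPM against 19.6 to 28.3 and Reln at 572 against 168 to 184. The other 8 summed to 657 against 706 to 844, and 6 of these 8 were lowest in that library. The rest of these 8, Gad1 and Slc32a1, were highest there, at 325 CPM against 254 to 308 and at 59.2 CPM against 38.6 to 56.4. All 10 of the excitatory markers were detected. Log2 fold changes of single genes and lists are also given without this library where leaving it out turned a direction or moved the value by more than 1.5 times. The medians over all members and over all pathway genes are given with it included, as are the directions over all pathway genes.

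None of the 9 members passed edgeR's quasi-likelihood test at a Benjamini-Hochberg adjusted p under 0.05, against 0.00554% of all genes tested (1 of 18060). One of the 9, Ins2, had an unadjusted p under 0.05, against 3.42% of all genes, 1.9% higher and 1.52% lower in APP/PS1. Ins2 was also the 1 member whose 3 APP/PS1 values did not overlap its 3 WT values, against 10.4% of all genes, 5.63% higher and 4.76% lower, so 1 of 9 lies close to the background. The members' log2 fold changes (APP/PS1 over WT) had a median of 0.06, with 6 above and 3 below 0, beside a median of 0.01 over all genes tested, of which 52.3% were above 0. Without APP/PS1 replicate 3, Insr, Igf1r and Irs1 turned below 0, and only Ins2, Igf2 and Igf2r stayed above it. Each call and fold change in the text is from this edgeR fit unless another tool is named.

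**Figure D1:**
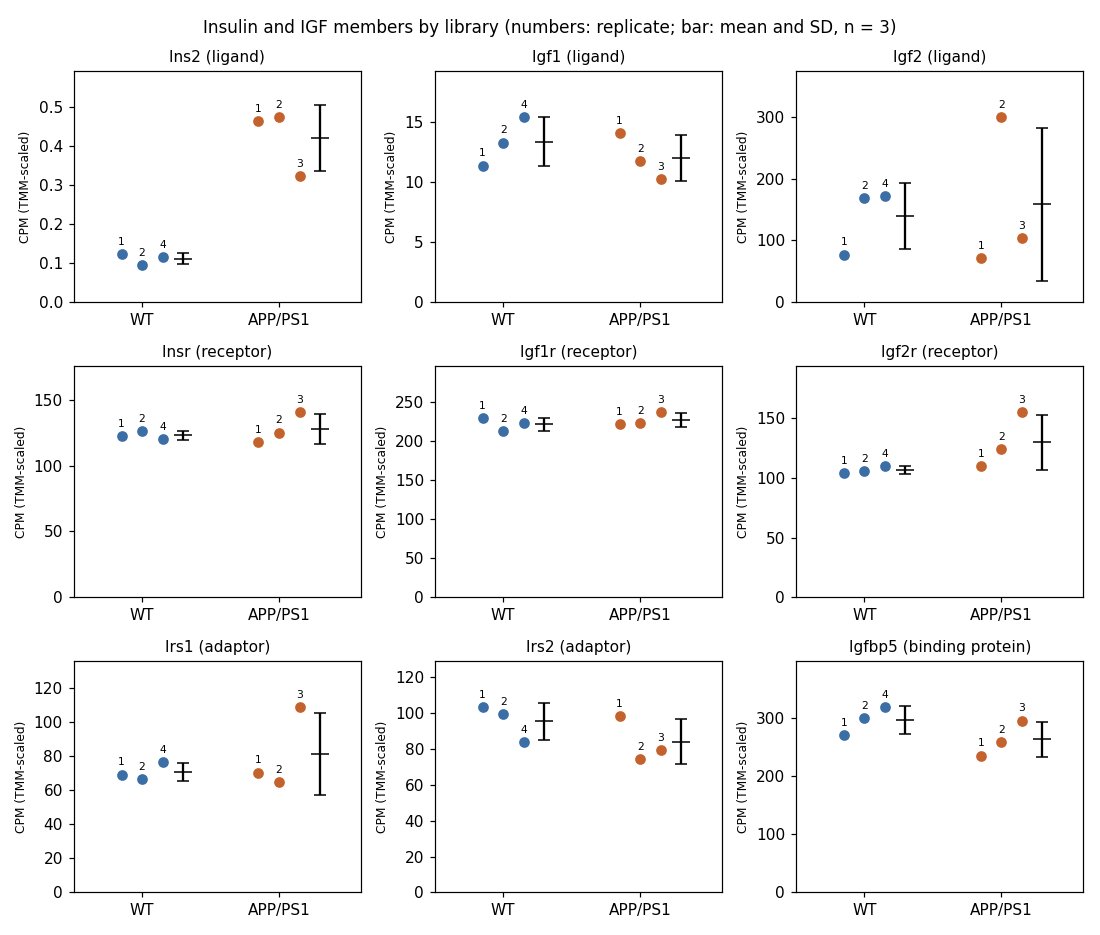
CPM of the 9 members (y axis, from 0) in the 3 WT and 3 APP/PS1 total RNA libraries, one panel per gene, with the replicate number at each point and the mean ± SD beside each group. The groups are apart only for Ins2, Igf2 ranges from 71.4 to 300.4 CPM, and APP/PS1 replicate 3 is the highest point for Insr, Igf1r, Igf2r and Irs1.

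Ins2 (chromosome 7, 142678656 to 142679726, mm10) is the mouse orthologue of the single human insulin gene and was the 1 ligand near the detection floor. It had 55, 64 and 44 estimated counts in APP/PS1 replicates 1, 2 and 3, and 15, 12 and 17 in WT replicates 1, 2 and 4. The floor was set at 12 estimated counts, about 3 fragments if 1 fragment stands for 4 estimated counts, which is 0.0815 to 0.101 CPM depending on the library. The WT libraries therefore sat at 1.00 to 1.42 times the floor and the APP/PS1 libraries at 3.67 to 5.33 times the floor.

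In CPM, Ins2 stood at 0.464, 0.474 and 0.322 in the APP/PS1 libraries and at 0.123, 0.0946 and 0.116 in the WT libraries. The lowest APP/PS1 library lay above the highest WT library. The means were 0.420 ± 0.0850 and 0.111 ± 0.0149 CPM (SD, n = 3 each). Their log2 fold change was 1.91 (SE 0.37), or 3.75-fold with a 95% interval of 2.04 to 6.90. With edgeR the unadjusted p was 0.0015 and the adjusted p over all genes 0.887, so Ins2 did not pass. With DESeq2 its adjusted p was 0.0312, the 1 member among the 26 genes, 0.145% of those with an adjusted p, that DESeq2 called. DESeq2 was run on the estimated counts as deposited, near the floor in WT. Counts divided by 4 were tried with edgeR only. Over all settings tried the adjusted p ran from 0.0312 to 0.995 and the log2 fold change from 1.81 to 2.11. The exact two-sided permutation test on log2 CPM gave p = 0.10, the smallest that 3 against 3 libraries allow.

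Ins1, the second insulin gene of the mouse and a near copy of Ins2, was listed at 0 in all 6 libraries. A value of 0 allows up to the same 12 estimated counts, and reads that fit both genes could have been given to either. Of 8 markers of pancreatic islet cells, where both genes are normally made, 6 stayed under 12 estimated counts in every library. The most abundant, Nkx6-1, had 0, 5 and 36 estimated counts in APP/PS1 replicates 1, 2 and 3. In WT replicates 1, 2 and 4 it had 17, 9 and 29. Iapp, the next, had 4 and 17 in APP/PS1 replicates 1 and 2 and 0 in the other libraries. Pdx1, a transcription factor of insulin-producing cells, was at 0 in all 6. Summed over the 8 markers the level was 0.0338 to 0.281 CPM in APP/PS1 and 0.173 to 0.265 CPM in WT.

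**Figure D2:**
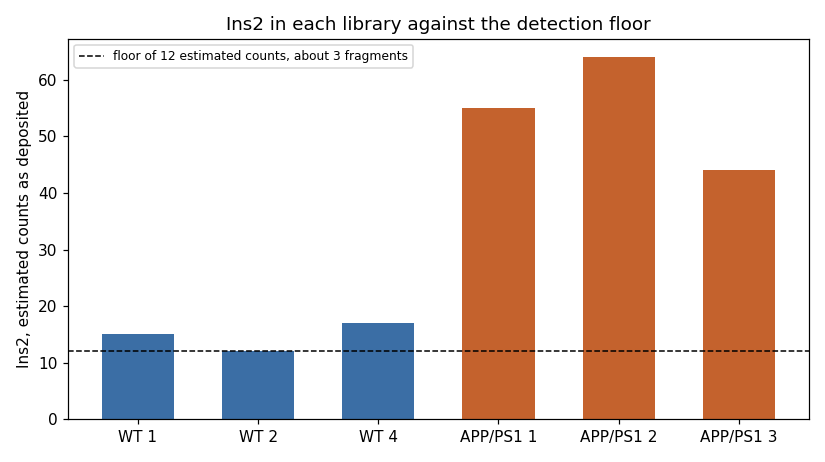
Estimated counts of Ins2 as deposited (y axis, from 0) in each total RNA library, with the floor of 12 estimated counts as a dashed line. The WT bars, 12 to 17, end at or just over the line, and the APP/PS1 bars, 44 to 64, end above it.

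Igf1 (chromosome 10, 87858265 to 87937047) encodes the IGF that promotes growth and neuronal survival. It had 1381 to 2267 estimated counts per library, at least 115 times the floor. Its level was 14.0, 11.7 and 10.2 CPM in APP/PS1 replicates 1, 2 and 3, and 11.4, 13.3 and 15.4 CPM in WT replicates 1, 2 and 4. The groups overlapped, and the highest and the lowest library differed 1.51-fold. The log2 fold change was -0.15 (SE 0.17, 95% interval -0.55 to 0.24), with an adjusted p of 0.887 in edgeR. It was -0.06 without APP/PS1 replicate 3, -0.04 without WT replicate 4 and -0.28 without the first APP/PS1 library. Microglial markers, from a cell type that makes IGF1, had negative log2 fold changes for 10 of 10 genes, with a median of -0.21. Without APP/PS1 replicate 3, 5 were lower and 5 higher, with a median of -0.02. Their summed CPM was 290, 255 and 174 in APP/PS1 replicates 1, 2 and 3 and 255 to 285 in WT, so replicates 1 and 2 lay at the WT level or just past it. None was at 0, and their part in the Igf1 values was not tested. GABAergic interneuron markers had 6 of 10 genes lower, or 9 of 10 without APP/PS1 replicate 3. Summed over all 10 they stood at 908 to 1485 CPM in APP/PS1 and 917 to 1057 CPM in WT, the top value being due to Pvalb and Reln in replicate 3. Without these 2 genes, which were set apart after seeing the data, the sums were 719, 740.5 and 657 CPM in APP/PS1 replicates 1, 2 and 3. They were 722, 844 and 706 CPM in WT replicates 1, 2 and 4, so APP/PS1 replicates 1 and 2 lay within the WT range. In bulk tissue, fewer cells of a type and less RNA per cell cannot be told apart.

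Igf2 (chromosome 7, 142650768 to 142666816), an imprinted gene that encodes the second IGF, varied most between libraries among the members other than Ins2. APP/PS1 replicates 1, 2 and 3 had 71.4, 300.4 and 104 CPM, while WT replicates 1, 2 and 4 had 77.0, 169 and 171 CPM. APP/PS1 replicate 2 was the highest and APP/PS1 replicate 1 the lowest of all 6, so the APP/PS1 range enclosed the WT range. The highest and the lowest library differed 4.21-fold, and 6.49% of all genes tested had a larger ratio. Among the WT libraries alone the ratio was 2.23, with 7.98% of genes above it.

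Igf2 averaged 159 ± 124 CPM in the transgenic and 139 ± 53.9 CPM in the WT libraries (SD, n = 3 each), and its log2 fold change was 0.19 (SE 0.57). The 95% interval, -1.17 to 1.55, covers changes of more than 2-fold in either direction, and edgeR's adjusted p was 0.946. The sign depended on single libraries. Leaving out APP/PS1 replicate 2 turned the log2 fold change to -0.66, and leaving out WT replicate 1 turned it to -0.10. The fits that dropped APP/PS1 replicate 1 or 3 gave 0.54 and 0.41, and those that dropped WT replicate 2 or 4 gave 0.35 and 0.37.

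Markers of both known sources of IGF2 were detected throughout, and none was at 0. Choroid plexus epithelium markers, led by Ttr at a mean of 1898 CPM, summed to 1968, 4361 and 2633 CPM in APP/PS1 replicates 1, 2 and 3, and to 1663 to 1973 CPM in WT. All 16 were on average higher in APP/PS1, at a median log2 fold change of 0.66, though none passed edgeR's test. The sum in APP/PS1 replicate 1 lay within the WT range. Meningeal and perivascular fibroblast markers, led by Dcn at a mean of 59.6 CPM, summed to 137, 285 and 285 CPM in APP/PS1 and to 166, 287 and 251 CPM in WT. Of these 14 markers 8 were higher and 6 lower, with a median of 0.03, or 2 higher and 12 lower without APP/PS1 replicate 3, with a median of -0.34. The libraries lowest in Igf2, APP/PS1 replicate 1 and WT replicate 1, were also the lowest in the fibroblast sum, and the library highest in Igf2, APP/PS1 replicate 2, was the highest in the choroid plexus sum. Other libraries differed. Relative to the mean log2 level, APP/PS1 replicate 3 was at -0.32 for Igf2 but at 0.34 for the fibroblast and 0.22 for the choroid plexus sum. WT replicates 2 and 4 were at 0.37 and 0.39 for Igf2 but at -0.20 and -0.31 for the choroid plexus sum. The part of these tissues in the Igf2 values was not tested.

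**Figure D3:**
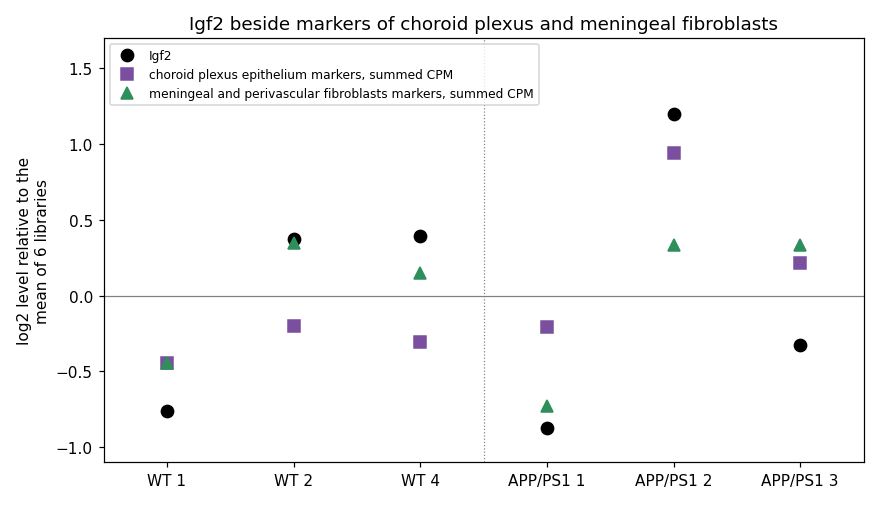
Igf2 and the summed CPM of choroid plexus and of meningeal fibroblast markers in each total RNA library, as log2 level relative to the mean of the 6 libraries (y axis). Igf2 and the fibroblast sum are both lowest in WT replicate 1 and APP/PS1 replicate 1, and Igf2 and the choroid plexus sum both peak in APP/PS1 replicate 2, at 1.20 and 0.94. In APP/PS1 replicate 3 Igf2 is below 0 and both sums are above it, and in WT replicates 2 and 4 Igf2 is above 0 and the choroid plexus sum below it.

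The Igf2 gene also carries a microRNA, miR-483, whose hairpin lies inside the gene (chromosome 7, 142654924 to 142654996, minus strand), so the small RNA table gives a separate readout of the locus. Both mature arms were found there and their RefSeq sequences (GRCm38.p6, the build of mm10) are shown 5′ to 3′ to identify them, with the seed (bases 2 to 8), the part that pairs with targets, in capitals.
miR-483-5p: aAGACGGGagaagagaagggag
miR-483-3p: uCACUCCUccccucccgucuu
The arms have different seeds, and neither seed occurs in another of the 1679 mature mouse miRNAs of the RefSeq table. The 5p arm maps to 142654968 to 142654989 and the 3p arm to 142654932 to 142654952.

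miR-483-3p had 31, 54 and 34 counts in the columns headed APP1, APP2 and APP3, and 41, 54 and 37 in those headed WT1, WT2 and WT4. Scaled, the transgenic columns averaged 2.48 ± 0.55 CPM and the WT columns 2.30 ± 0.58 CPM (SD, n = 3 each), with a log2 fold change of 0.12 (SE 0.28, 95% interval -0.52 to 0.76). miR-483-5p had 9, 21 and 19 counts in the APP/PS1 columns and 19, 21 and 19 in the WT columns, with a log2 fold change of 0.01 (SE 0.36, 95% interval -0.82 to 0.84). The groups overlapped for both arms, and edgeR's adjusted p was 0.958 and 0.989. Of the 703 miRNAs tested, 0% (0) passed with edgeR, with 25 (3.56%) at an unadjusted p under 0.05, and 0 passed with DESeq2. The labels do not say which mouse gave which small RNA column, so the arms and Igf2 were not compared mouse by mouse. Both arms of miR-675, which lies in the neighbouring imprinted gene H19, were at 0 counts in all 6 columns, where 0 allows up to 3 counts per column. H19 itself stood at 0.245 to 1.41 CPM over the 6 total RNA libraries.

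Insr (chromosome 8, 3150922 to 3279649) encodes the insulin receptor, and Igf1r (chromosome 7, 67952257 to 68233668) the receptor through which both IGFs signal. Igf1r was the steadiest member, with 222, 223 and 237 CPM in APP/PS1 replicates 1, 2 and 3 and 229.9, 213 and 223 CPM in WT replicates 1, 2 and 4. The ratio of its highest to its lowest library was 1.11, and 93.6% of all genes tested had a larger one. Insr stood at 118, 125 and 140.5 CPM in APP/PS1 and 122, 126 and 120.0 CPM in WT. In both genes the groups overlapped.

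The log2 fold change of Igf1r was 0.04 (SE 0.07), a ratio of 1.02 with a 95% interval of 0.910 to 1.15. For Insr it was 0.06 (SE 0.09), a ratio of 1.04 with an interval of 0.899 to 1.20. EdgeR's adjusted p was 0.925 for Igf1r and 0.903 for Insr. Changes of 1.5-fold or more in either receptor transcript thus lie outside the intervals, and changes within the intervals cannot be told from none. Without APP/PS1 replicate 3 both log2 fold changes were just below 0, at -0.00064 for Igf1r and -0.02 for Insr.

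Igf2r (chromosome 17, 12682406 to 12769706) encodes the cation-independent mannose 6-phosphate receptor, which carries lysosomal enzymes and takes up IGF2 for breakdown without a kinase of its own. APP/PS1 replicates 1, 2 and 3 had 110, 124 and 155 CPM, and WT replicates 1, 2 and 4 had 104, 106 and 110.1 CPM. APP/PS1 replicates 2 and 3 lay above every WT library, and APP/PS1 replicate 1 lay just under the highest of them. The means were 129.8 ± 23.2 and 107 ± 3.07 CPM (SD, n = 3 each), and the log2 fold change was 0.28 (SE 0.13, 95% interval -0.03 to 0.60). Igf2r had the smallest unadjusted p after Ins2, at 0.0713 in edgeR, with an adjusted p of 0.887. Without APP/PS1 replicate 3 the log2 fold change was 0.13, less by more than 1.5 times.

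Airn, a long noncoding RNA transcribed antisense across the start of Igf2r (chromosome 17, 12741311 to 12859884), was at 11.6 CPM in APP/PS1 replicate 3 and at 0.869 to 1.88 CPM in the other libraries. Whether the counting used strand is not stated in the labels, so reads of the overlapping stretch cannot be assigned to one gene with certainty. The same holds for Igf2 and its antisense gene Igf2os, which stood at 0.447 to 0.973 CPM. An antisense gene of Igf1, Igf1os in RefSeq, was not analysed here.

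**Figure D4:**
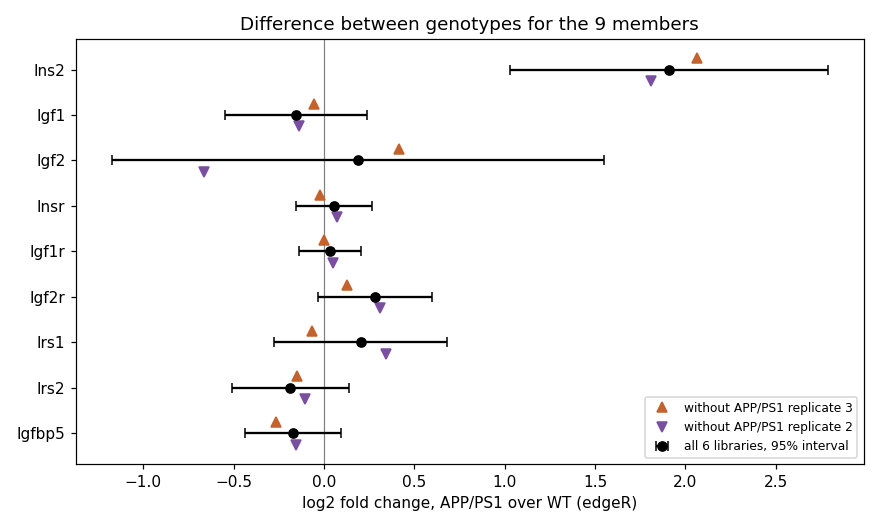
Log2 fold change of each member, APP/PS1 over WT, from edgeR with all 6 libraries (black, with 95% interval) and without APP/PS1 replicate 3 or replicate 2 (triangles). The interval of Ins2, 1.03 to 2.79, lies apart from 0 before adjustment over all genes. The Igf2 triangle without replicate 2 is on the other side of 0.

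Irs1 (chromosome 1, 82233105 to 82291439) and Irs2 (chromosome 8, 10984681 to 11008929) encode the docking proteins that link both kinase receptors to PI3 kinase, and Irs2 is itself a target of FOXO factors when insulin signalling is low. For Irs1, APP/PS1 replicates 1, 2 and 3 had 70.3, 64.8 and 108 CPM, and WT replicates 1, 2 and 4 had 69.0, 66.3 and 76.4 CPM. Only APP/PS1 replicate 3 lay above the WT range. The log2 fold change of 0.20 (SE 0.20) was -0.07 without that library, and edgeR's adjusted p was 0.887 and 0.995. In that library the excitatory neuron and microglial marker sums were the lowest, as given above, and their part in the Irs1 and Igf2r values was not tested.

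For Irs2 the values were 98.4, 74.5 and 79.3 CPM in APP/PS1 replicates 1, 2 and 3 against 103, 99.6 and 84.0 CPM in WT replicates 1, 2 and 4. APP/PS1 replicates 2 and 3 lay below every WT library and replicate 1 within their range. The means were 84.1 ± 12.6 and 95.6 ± 10.3 CPM (SD, n = 3 each), and the log2 fold change was -0.19 (SE 0.13, 95% interval -0.51 to 0.14). EdgeR's adjusted p was 0.887. Leaving out 1 library at a time gave -0.31 to -0.11.

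Igfbp5 (chromosome 1, 72858065 to 72874865) encodes a secreted binding protein that holds IGFs in the extracellular space. Its CPM was 236, 259 and 296 in APP/PS1 replicates 1, 2 and 3 against 271, 300.4 and 319 in WT replicates 1, 2 and 4. The ranges overlapped, with the lowest values in APP/PS1 replicates 1 and 2 and the highest in WT replicate 4. The means were 263 ± 30.5 and 297 ± 24.3 CPM (SD, n = 3 each), and the log2 fold change was -0.17 (SE 0.11, 95% interval -0.44 to 0.09). EdgeR's unadjusted p was 0.170 and its adjusted p 0.887. Without 1 library at a time the log2 fold change lay between -0.27 and -0.09. The value of -0.27 was without APP/PS1 replicate 3, with an unadjusted p of 0.0201 and an adjusted p of 0.995 in edgeR.

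The other genes of the pathway were taken from 8 lists with 93 genes, of which 90 were tested and Ins1, Igfbp1 and Igf2bp1 were under the filter. None of the 90 passed edgeR's test over all genes, and 0 passed with DESeq2. At an unadjusted p under 0.05 there was 1 of 90 (Igfals, near the floor, described below), against 3.42% of all genes. The groups did not overlap for 10 of 90, 5 higher and 5 lower in APP/PS1, against 10.4% of all genes, 5.63% higher and 4.76% lower. The median log2 fold change was -0.01, with 40 above and 50 below 0. Without APP/PS1 replicate 1 the number at an unadjusted p under 0.05 was 7 of 90, against 8.17% of all genes in that fit, and still 0 passed.

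Of 12 tested binding proteins, proteases and their regulators, 6 were higher and 6 lower, with a median of 0.04. Igfals encodes the acid-labile subunit that keeps IGF complexes in the blood. It was at 0.245, 0.370 and 0.293 CPM in APP/PS1 and 0.0658, 0.126 and 0.0679 CPM in WT, so the groups did not overlap. Like Ins2 it was near the floor, with 8 to 16 estimated counts in WT and 29 to 50 in APP/PS1. WT replicates 1 and 4, at 8 and 10, were under the floor of 12. Igfals passed the filter on low counts through its APP/PS1 libraries, so its separation and its p-value are not independent of that filter. Its log2 fold change was 1.80 (SE 0.45), with an unadjusted p of 0.0056 and an adjusted p of 0.887 in edgeR. Igfbp7, which binds IGFs with low affinity, had 0.35 (SE 0.17) on the same scale. Insrr, the orphan receptor related to Insr, ranged from 0.0675 to 1.90 CPM in APP/PS1 and from 0.132 to 0.978 CPM in WT. Its log2 fold change was 0.62 (SE 1.08), or -0.42 without APP/PS1 replicate 3.

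Of 21 adaptors and receptor regulators 9 were higher and 12 lower, or 11 and 10 without APP/PS1 replicate 3. The smallest p-values belonged to Socs3, a feedback inhibitor of receptor signalling, with a log2 fold change of -0.40 (SE 0.21), and to Shc3, a neuronal adaptor, with -0.40 (SE 0.22). Shc3 stood at 66.2, 61.3 and 36.2 CPM in APP/PS1 and 70.5 to 74.4 CPM in WT, with APP/PS1 replicate 3 again the farthest from the rest, and without it the log2 fold change was -0.18.

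In the PI3 kinase, AKT and mTOR arm 9 of 25 genes were higher and 16 lower, with a median of -0.03. Gsk3a, a kinase inhibited by AKT that also phosphorylates tau, stood at 236, 209 and 184 CPM in APP/PS1 and 263, 234 and 251 CPM in WT, overlapping by 1 library. Its log2 fold change was -0.25 (SE 0.11), with an unadjusted p of 0.0575 and an adjusted p of 0.887 in edgeR. Pik3ca, the catalytic subunit that makes the lipid messenger, had 0.23 (SE 0.14), with 138 CPM in APP/PS1 replicate 3 against 94.1 to 100.2 CPM in the other libraries, and 0.05 without that library. In the RAS and MAP kinase arm 4 of 10 were higher and 6 lower, within -0.18 to 0.17, with Araf at 0.11 (SE 0.07) and Mapk3, the kinase ERK1, at -0.18 (SE 0.12), or -0.06 without APP/PS1 replicate 3. Without that library 9 of the 10 were higher, with a median of 0.05.

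FOXO factors, which insulin signalling keeps out of the nucleus, and genes responsive to them had 7 of 12 higher and 5 lower, with a median of 0.08, or 6 and 6 without APP/PS1 replicate 3, with a median of -0.0020. Sesn1, a stress-responsive inhibitor of mTOR, stood at 37.0, 42.5 and 59.0 CPM in APP/PS1 and 36.5 to 40.3 CPM in WT. Its log2 fold change was 0.28 (SE 0.17), or 0.06 without APP/PS1 replicate 3, and that of its relative Sesn3 was -0.13 (SE 0.09). Of 6 glucose transporters 3 were higher and 3 lower, with a median of 0.01, or -0.05 without APP/PS1 replicate 3. Slc2a12 was at 27.9 CPM in APP/PS1 replicate 2, 14.0 and 18.2 CPM in replicates 1 and 3, and 13.1 to 14.7 CPM in WT. The neuronal transporter Slc2a3 had a log2 fold change of 0.08 (SE 0.07). Among regulators of IGF transcripts, H19 had 0.55 (SE 0.78) and Igf2bp2, an RNA-binding protein, -0.23 (SE 0.57). Without APP/PS1 replicate 3 these were -0.73 and -0.09.

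**Figure D5:**
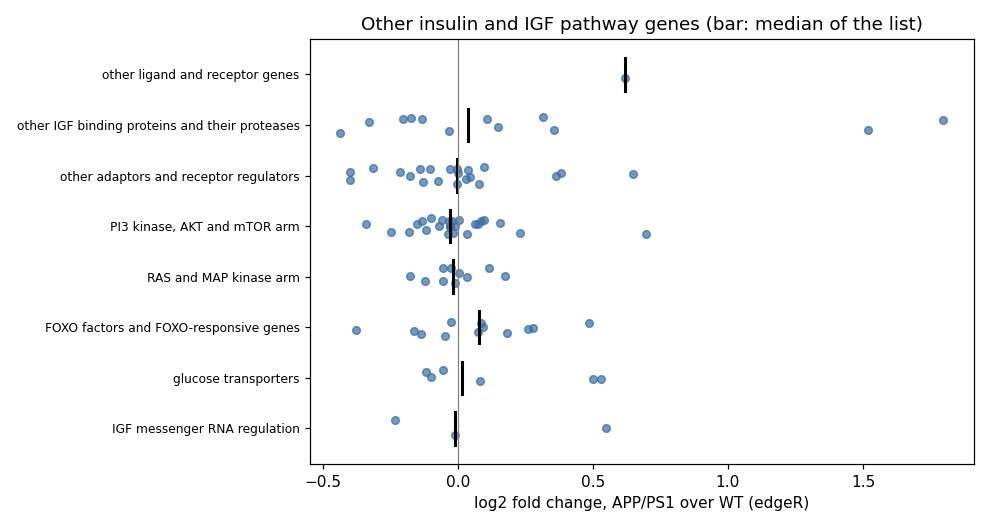
Log2 fold change, APP/PS1 over WT (x axis), of each of the 90 tested pathway genes, one row per list, with the median of the list as a black bar. Most points lie within 0.5 of 0, and the medians lie between -0.03 and 0.08 except for the list of other ligands and receptors, which holds Insrr alone at 0.62.

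The genes whose pattern over the 6 total RNA libraries lay nearest to a member were found by the root mean square distance of mean-centred log2 CPM, among genes with a mean of at least 1 CPM. For Ins2, whose own spread by that measure was 0.98, the nearest of 14603 genes were Gm4737 at 0.29, App at 0.46 and Prnp at 0.47. The difference between the genotypes enters this distance, so a gene higher in APP/PS1 can lie near Ins2 for that reason alone. App is carried by the construct, and the labels do not say whether Prnp sequence is. No link of Ins2 with the construct was tested. For Igf2, with a spread of 0.73, the nearest were Cdr2 at 0.27, AA465934 at 0.30 and Ptgis, prostacyclin synthase, also at 0.30. Ptgis stood at 2.04 CPM in APP/PS1 replicate 2 and at 0.642 and 0.748 CPM in APP/PS1 replicate 1 and WT replicate 1, the libraries that were highest and lowest for Igf2. Ptgis was picked for its nearness to Igf2 over these same libraries, so the shared extremes follow from that choice. For Igf1, with a spread of 0.20, C530005A16Rik was nearest at 0.05, followed by the chemokine receptor Ackr3 and by Isoc2b, both at 0.06. For Igfbp5, with a spread of 0.15, Pgm1 was nearest at 0.03, followed by Flrt1 and Slc11a1, both at 0.05.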

How the data were processed

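Total RNA was measured in 6 hippocampal libraries and small RNA in 6 more, 3 per genotype in each. The authors deposited whole-number estimated counts per gene symbol and raw counts per mature miRNA. Per the submitters' processing notes the build was mm10, and HISAT2, StringTie and DESeq were used in roles that are not stated. How counts, strand, annotation and filters were handled is not stated either. In the deposited estimated counts the value 4 occurred 1817 times, 5 occurred 1346 times and 8 occurred 1201 times, against 897 for 3 and 624 for 6. A fragment was taken to stand for about 4, though 5 is frequent too, which leaves the depth in fragments and the floor of 12 uncertain.

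APP/PS1 was compared with WT over each whole table by edgeR 4.0.16 (R 4.3.3): TMM, default expression filter, quasi-likelihood test, Benjamini-Hochberg adjustment. SE and 95% intervals were derived from the fold change and the F statistic. Levels are CPM on the TMM-scaled library size. The alternatives were other size factors and filters, DESeq2 1.42.0, limma-voom (limma 3.58.1), estimated counts divided by 4, the replicate number as a block, and each library left out. Values of the list genes without APP/PS1 replicate 3 were added after seeing the data. The script was tested on simulated data with known changes: among 18060 genes, 39 of 100 changed 2-fold and 85 of 100 changed 4-fold were recovered. All 9 members matched a RefSeq table (GRCm38.p6), which gave coordinates and miRNA sequences. Small RNA columns carry the titles of the total RNA libraries and were assigned to a genotype only.

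The members, gene lists and tests were chosen with earlier results of these data known. Named from each pathway list were genes past the threshold or else the 2 with the smallest p. From each marker list summed levels are given, with leading or undetected genes for some lists only.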

Additional observations from a re-analysis of the deposited data

How the results depend on the processing

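The count of genes past edgeR's threshold, 1 with all libraries, was 26 with DESeq2, 2 with the replicate block and 0 to 6 with 1 library left out: 6 without APP/PS1 replicate 1, 5 without replicate 3, 4 without WT replicate 4 and 0 without WT replicate 1 or 2. Among the 9 members it was 0, and 1 (Ins2) with DESeq2. It stayed 0 with each library left out and for the 90 pathway genes in every setting. For miRNAs it was 0, and 5 with no filter, and 0 to 3 with 1 column left out, 3 being without the column headed APP1. At an unadjusted p under 0.05 in edgeR there were 3 of 9 members (Ins2, Igf2r and Irs2) without APP/PS1 replicate 1, against 8.17% of all genes in that fit. Without APP/PS1 replicate 3 there were 2 of 9 (Ins2 and Igfbp5), against 737 of 18302 genes. With the replicate number as a block, which pairs numbers 1 and 2 only, the log2 fold change was 0.063 for Igf1, -0.036 for Insr and -0.0039 for Irs1, each of the other sign than without it. The deviations of same-numbered libraries correlated at 0.17 and -0.03 across genes, and no label says that a number marks a shared litter or day. With 1 library left out, 4 members changed sign: Igf2 ran from -0.66 to 0.54, Insr from -0.023 to 0.116, Igf1r from -0.00064 to 0.066 and Irs1 from -0.068 to 0.34. Insr, Igf1r and Irs1 did so without APP/PS1 replicate 3, and Igf2 without APP/PS1 replicate 2 or WT replicate 1. The causes were not tested. Ins2, Igf2r, Irs2 and Igfbp5 kept their sign in all 15 settings. Depth limits Ins2, Igfals and both arms of miR-483.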

Other observations

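Several pathway genes, chosen after their values were seen, had 1 library far from the other 5. Pappa, a protease that frees IGFs from a binding protein, was at 36.8 CPM in APP/PS1 replicate 3 and at 4.77 to 6.03 CPM in the other libraries. Pik3r3, a regulatory subunit of PI3 kinase, was at 181 CPM in that library and at 56.1 to 69.4 CPM in the others, and Foxo3 at 123 CPM against 44.6 to 54.2 CPM. With 3 libraries per group, none of these differences between genotypes passed edgeR's test. Igfbp2, a binding protein also made by choroid plexus, was highest in APP/PS1 replicate 2, at 65.2 CPM against 38.5 to 45.0 CPM elsewhere, the library that was also highest in Igf2 and in the choroid plexus sum.

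Insrr split the libraries across genotypes. It had 8 and 16 estimated counts in APP/PS1 replicate 1 and WT replicate 1, and 106 to 259 in the other 4 libraries. The same 2 libraries were the lowest in Igf2 and in the meningeal fibroblast sum.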
